A study of Mus musculus with 18 samples.

Results

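The annexins are a family of cytosolic proteins defined by a conserved core that binds acidic phospholipids when calcium is present. The 10 family members examined here, Anxa1, Anxa2, Anxa3, Anxa4, Anxa5, Anxa6, Anxa7, Anxa8, Anxa10 and Anxa11, were taken by gene symbol from count tables of 49585 genes (2 tables) and 21969 genes (1 table). They were selected because Anxa1 and Anxa10 lay on opposite sides in the Fezf2 knockout, so their values in that comparison are given as a description with no test. All 10 were listed in the 3 tables and all passed the filter on low counts in each comparison.

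RNA was sequenced from sorted medullary thymic epithelial cells (mTECs) of mice, stromal cells of the thymus that express tissue-restricted antigens and display them to developing T cells. The 18 libraries formed 6 groups of 3, called A, B and C here. Mice labelled Aire KO were set against a WT group kept as their control, mice labelled Fezf2 KO against a WT group of their own, and Chd4 cKO mice against a Chd4 control. Aire and Fezf2 groups were C57BL/6, while both Chd4 groups were C57BL/6x129P2 mice with floxed Chd4, deleted in the cKO by Foxn1-Cre, a recombinase active in thymic epithelium at large and not in mTECs alone. The column names call the Fezf2 KO libraries Fezf2cKO, so the sources differ on whether that deletion was conditional. Neither age nor whether the libraries of a group came from separate animals is given in the sources used here. The p values therefore set the difference between groups against the spread of these libraries, and that spread may be technical.

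Exon reads per library ranged from 3571570 to 5928985, apart from Chd4 cKO libraries A and B with 6946014 and 17220157. Fezf2 stood at 8.44 to 23.4 CPM in Fezf2 KO and 570 to 735 CPM in its WT, and Chd4 at 24.6 to 30.2 CPM in the cKO and 55.4 to 66.5 CPM in its control. Aire transcript was higher in the libraries labelled Aire KO, at 3737 to 4088 CPM, than in the WT for Aire, at 1810 to 2302 CPM. Whole-gene counts do not check that label, because the sources used here do not give the deleted part. Summed levels of marker lists are CPM of all exon reads, with no TMM factor; with TMM factors no list's groups changed between separate and overlapping. The sum of 10 mTEC markers was 19695 to 20367 CPM in the libraries labelled Aire KO against 15819 to 17152 CPM in their WT, 17799 to 18966 CPM in Fezf2 KO against 13462 to 15000 CPM in its WT, and 12328 to 12640 CPM in Chd4 cKO against 13369 to 13474 CPM in the control. The groups were thus apart in each comparison, higher in the first 2 and lower in Chd4 cKO. Most of each sum was H2-Aa, at 12410 CPM in the libraries labelled Aire KO against 9776 CPM, and 12815 CPM in Fezf2 KO against 8710 CPM. In the Aire comparison, where Aire itself adds to the sum, 3 of the 10 markers rose and 2 fell. In Fezf2 KO 1 was at least 2-fold higher and 0 lower. In Chd4 cKO 5 of the 10 fell and 1 rose. Over all genes tested, 5.73% rose and 9.37% fell in the Aire comparison, and 14.3% rose and 14.3% fell in Chd4 cKO. In Fezf2 KO 4.81% of all genes were at least 2-fold higher and 7.23% lower. The part of the marker differences in the annexin values was not tested. None of those markers was at 0 in all 6 libraries of a comparison. Library B of the WT for Fezf2 differed from A and C of its group by a chi-square of 44.1 and 39.2 per degree of freedom, against 4.56 between A and C, so values without it are given for the members and for the counts of gene lists in that comparison.

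Annexin A1 is known as an anti-inflammatory mediator induced by glucocorticoids that acts through formyl peptide receptors. Annexin A2 pairs with the EF-hand protein S100a10 at the cell surface and there binds plasminogen and its activator. Other members take part in membrane repair, endosome traffic and calcium signalling, annexin A5 is widely used as a probe of phosphatidylserine on dying cells, and annexin A10 is an atypical member whose transcript is prominent in the gastric mucosa.

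The promoters of Anxa1 and Anxa2, the members furthest above WT in Fezf2 KO, and of Anxa10, the member furthest below, are shown for comparison. Each run holds the 250 bases before the start that RefSeq gives (GRCm38.p6), 5′ to 3′ along the gene, at chr19:20390672-20390921 on the minus strand for Anxa1, chr9:69453433-69453682 on the plus strand for Anxa2 and chr8:62123194-62123443 on the minus strand for Anxa10. Capitals mark matches on either strand to TATAAA, the TATA box, and to TGANTCA, the motif of AP-1 factors.
Anxa1: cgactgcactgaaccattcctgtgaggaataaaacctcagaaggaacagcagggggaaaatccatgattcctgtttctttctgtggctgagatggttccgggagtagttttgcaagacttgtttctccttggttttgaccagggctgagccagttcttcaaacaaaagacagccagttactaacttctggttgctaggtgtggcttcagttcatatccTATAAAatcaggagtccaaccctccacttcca
Anxa2: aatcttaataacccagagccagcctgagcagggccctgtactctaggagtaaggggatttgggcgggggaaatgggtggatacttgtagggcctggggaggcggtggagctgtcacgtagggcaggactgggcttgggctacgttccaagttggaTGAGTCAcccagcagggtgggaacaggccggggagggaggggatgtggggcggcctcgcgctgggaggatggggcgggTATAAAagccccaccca
Anxa10: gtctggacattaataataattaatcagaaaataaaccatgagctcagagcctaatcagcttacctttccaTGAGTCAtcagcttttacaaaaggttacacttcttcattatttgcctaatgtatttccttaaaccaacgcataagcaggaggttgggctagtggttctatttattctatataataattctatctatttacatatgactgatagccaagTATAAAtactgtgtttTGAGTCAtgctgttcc

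TATAAA was present in all 3 of these runs, beginning 32 bases before the start in Anxa1 and in Anxa10 and 17 bases before it in Anxa2. The share of 32851 RefSeq windows (250 bases before to 50 after a start) that hold TATAAA was 13.6%. TGANTCA was matched at 180 and 16 bases before the start of Anxa10 and at 95 bases before that of Anxa2, all as TGAGTCA, and not in the Anxa1 run; 7.81% of the windows hold it. The palindrome ACANNNTGT, a loose form of the steroid receptor element, was in none of the 3 and in 6.85% of the windows. CCAAT, the CCAAT box, was also in none of the 3, against 37.4% of windows. A GGGCGG match, the GC box, was found 3 times in the Anxa2 run and not in those of Anxa1 and Anxa10, against 35.7% of windows. G and C made up 47.3% of the Anxa1 window, 63.7% of that of Anxa2 and 34.3% of that of Anxa10. RefSeq and GENCODE differ on where these genes start. The RefSeq start of Anxa1 lies 273 bases inside the GENCODE gene, so its whole run falls within the gene span given below; that of Anxa2 lies 63 bases inside, and that of Anxa10 lies 43 bases upstream of the GENCODE start. These matches are letters in a window and not measured binding. Of the 10 members 8 had a RefSeq window, and those of Anxa4, Anxa5, Anxa7, Anxa8 and Anxa11 held neither TATAAA nor TGANTCA. The 3 runs shown were picked by their Fezf2 KO values, so nothing is read from these shares.

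Anxa1 (ENSMUSG00000024659, protein coding, GRCm38 chromosome 19, 20373428 to 20390944) had 3754, 3371 and 4241 CPM in Fezf2 KO libraries A, B and C, against 407, 379 and 411 CPM in the WT for Fezf2. CPM here are exon read counts scaled to library size with TMM factors. Each KO library exceeded each WT library, and the means, 3789 ± 436 and 399 ± 17.8 CPM (SD, n = 3 each), differ 9.50-fold (log2 fold change 3.25). These values rest on 16383 to 21485 exon reads per KO library and 1445 to 1940 per WT library.

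Anxa10 (ENSMUSG00000031635, protein coding, chromosome 8, 62057042 to 62123150) had 15.2, 15.2 and 15.6 CPM in Fezf2 KO, against 97.7, 96.9 and 91.2 CPM in the WT for Fezf2. All KO libraries lay below all WT libraries, with a log2 fold change of -2.63 and means of 15.3 ± 0.222 and 95.3 ± 3.52 CPM (SD, n = 3 each). The reads behind them were 68 to 87 per KO library and 370 to 466 per WT library. Anxa2 (ENSMUSG00000032231, chromosome 9, 69453620 to 69491795) had 907, 918 and 906 CPM in Fezf2 KO, against 266, 355 and 282 CPM in the WT, 3.02-fold apart with no overlap.

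**Figure D1:**
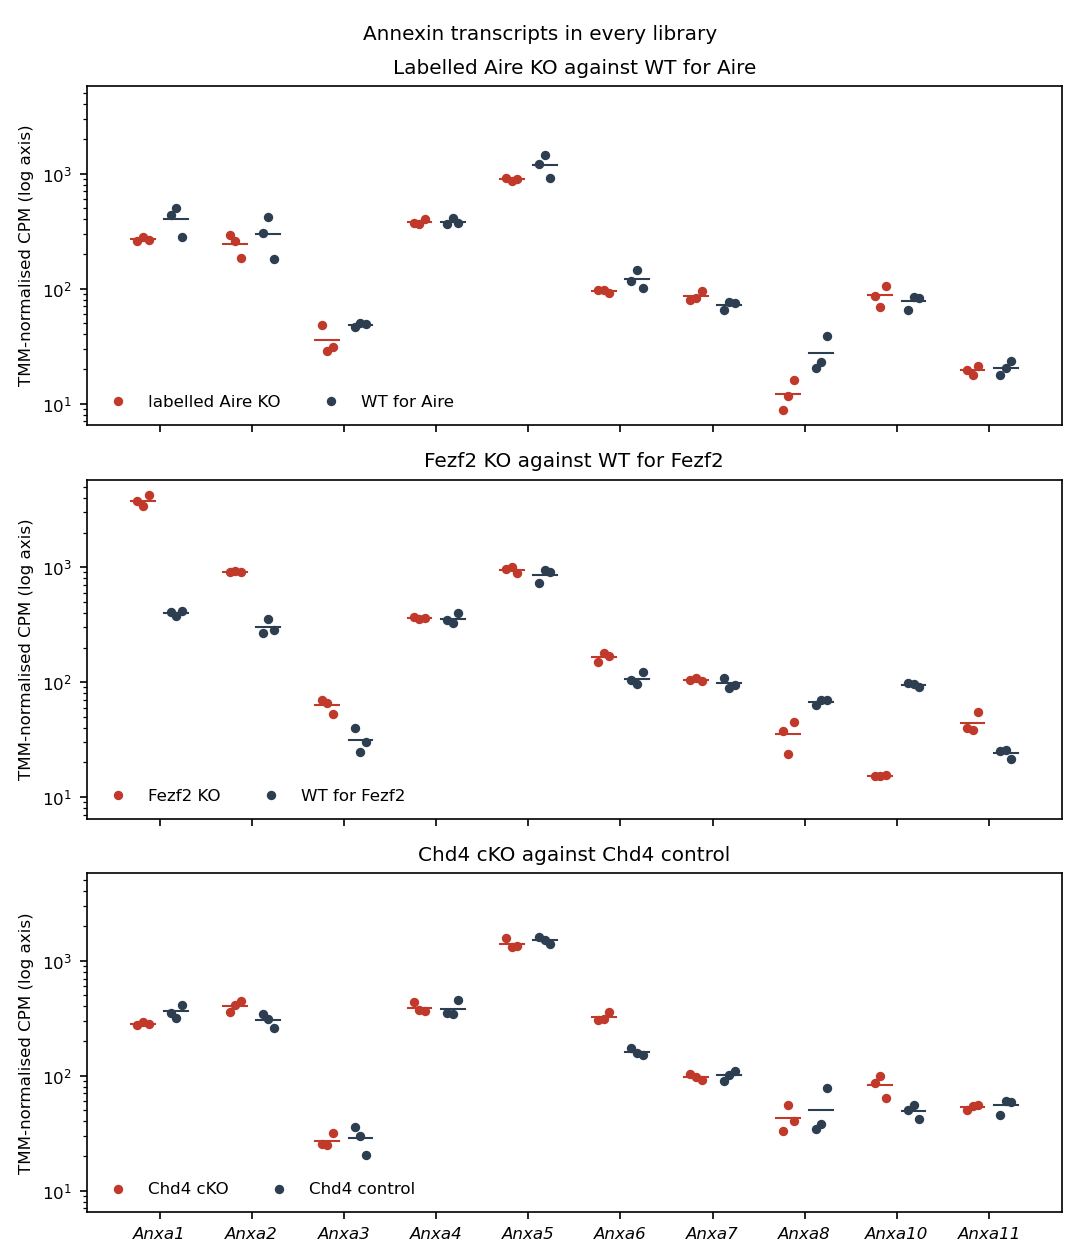
Annexin transcripts in every library, as TMM-normalised CPM on a log axis, with 1 panel per comparison; red points are libraries of the knockout group, dark points those of its control, and short lines the group means (n = 3). In the Fezf2 panel Anxa1 sits at 3371 to 4241 CPM in KO libraries against 379 to 411 CPM in WT libraries and Anxa10 at 15.2 to 15.6 CPM against 91.2 to 97.7 CPM, while in the other panels the widest gap between group means is that of Anxa8 in the libraries labelled Aire KO, at 0.447 of the WT mean.

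Among the remaining members, Anxa3 was just short of a 2-fold difference in Fezf2 KO, at 63.0 ± 8.80 CPM against 31.7 ± 7.93 CPM in the WT (log2 fold change 0.99). Anxa8, a member of stratified epithelia, was just short of it on the other side, at 35.4 ± 10.7 CPM against 67.7 ± 4.38 CPM (-0.94). Without WT library B these differences were 0.84 for Anxa3 and -0.91 for Anxa8. Anxa11, which binds the EF-hand protein Pdcd6, had a log2 fold change of 0.88, and Anxa6, whose core is extended by a duplication, 0.63. Anxa5, Anxa7, the aggregator of secretory granules also called synexin, and Anxa4, an annexin of epithelia, had 0.15, 0.11 and 0.02, and their groups overlapped. Without WT library B, Anxa11 had 0.93 and Anxa6 0.56, and the groups of Anxa5, Anxa7 and Anxa4 still overlapped.

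Past a 2-fold difference in Fezf2 KO were 2 of the 10 members upward and 1 downward, where 4.81% and 7.23% of all 15695 genes tested were. Since the family was chosen on this contrast, nothing is read from that count. The median log2 fold change was 0.39 over the members and -0.03 over all genes, and 0.39 over the members without WT library B. Leaving out WT library B kept the count at 3, with log2 fold changes of 3.21 for Anxa1, 1.73 for Anxa2 and -2.62 for Anxa10. Without Fezf2 KO library C it became 5. Over the alternatives tried, Anxa1 kept log2 fold changes of 3.17 to 3.33 and Anxa10 of -2.66 to -2.61.

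Summed over the family, CPM reached 6404, 6087 and 6828 in Fezf2 KO libraries and 2185, 2403 and 2426 in those of the WT. Anxa1 supplied 55.4 to 62.1% of that sum in the KO and 15.8 to 18.6% in the WT. Markers of other cells also differed in this comparison, where 4.81% of all genes were at least 2-fold higher and 7.23% lower. Of 15 thymocyte markers 11 were at least 2-fold lower in the KO (10 without WT library B), with sums of 209 to 271 CPM there against 463 to 849 CPM in the WT. Myeloid sums were 1273 to 1419 CPM in the KO against 1559 to 2175 CPM in the WT, and B cell sums 31.8 to 37.4 against 50.9 to 76.6 CPM. Lyz2 held much of the myeloid sum, at 623 CPM against 974 CPM. With TMM factors the myeloid sums nearly met, at most 1470.4 CPM in the KO and at least 1470.7 CPM in the WT. Only 1 of 10 myeloid markers was at least 2-fold lower and 1 higher, with a median log2 fold change of -0.12 (0.12 without WT library B). Of 4 B cell markers 1 was at least 2-fold lower (0 without WT library B). Cortical epithelial sums were higher, at 1407 to 1989 CPM in the KO against 878 to 1271 CPM, and so were fibroblast sums, at 206 to 286 against 123 to 194 CPM. Most of the cortical sum was Ccl25, at 1329 CPM against 698 CPM. Of 6 cortical markers 1 was at least 2-fold higher and 0 lower (1 and 1 without WT library B), and Ly75 had -0.96. Of 5 fibroblast markers 1 was at least 2-fold higher and 0 lower, with or without that library. These 5 sums stayed apart without WT library B, and their part in the annexin values was not tested. In bulk libraries, fewer cells of a type, less RNA per cell and a change in the mTECs' own transcripts cannot be told apart.

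Levels of different genes are compared per kilobase of exon. In Fezf2 KO, Anxa1 was the highest member at 1453 ± 167 CPM per kb and Anxa10 the lowest at 6.69 ± 0.0970 CPM per kb. In the WT for Fezf2, Anxa5 led at 482 ± 65.6 CPM per kb, Anxa1 followed at 153 ± 6.83 and Anxa10 ranked 5 of 10 at 41.6 ± 1.54, with a range overlapping that of Anxa6 just below it. These 3 ranks were the same without WT library B. Anxa5 was also the highest member in the other 4 groups, from 503 ± 16.1 CPM per kb in those labelled Aire KO to 870 ± 54.6 in the Chd4 control, above the range of the next member in each.

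The order below Anxa5 was alike in the libraries labelled Aire KO and the WT for Aire. Anxa1 came second in both, at 103 ± 3.63 and 155 ± 43.3 CPM per kb, and Anxa11 last, at 4.69 ± 0.420 and 4.94 ± 0.724. Anxa2 and Anxa4 overlapped each other in both groups, as did Anxa8 and Anxa3, and Anxa6 and Anxa10. In the Chd4 groups Anxa3 was last, at 9.79 ± 1.30 CPM per kb in the cKO and 10.3 ± 2.79 in the control. Anxa2 was second in the cKO, at 231 ± 24.2 CPM per kb, and Anxa1 second in the Chd4 control, at 216 ± 29.0, where its range overlapped that of Anxa2. Exon lengths differ between the Chd4 table and the others (1674 against 2608 bases for Anxa1), so levels per kb are not compared across those tables.

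**Figure D2:**
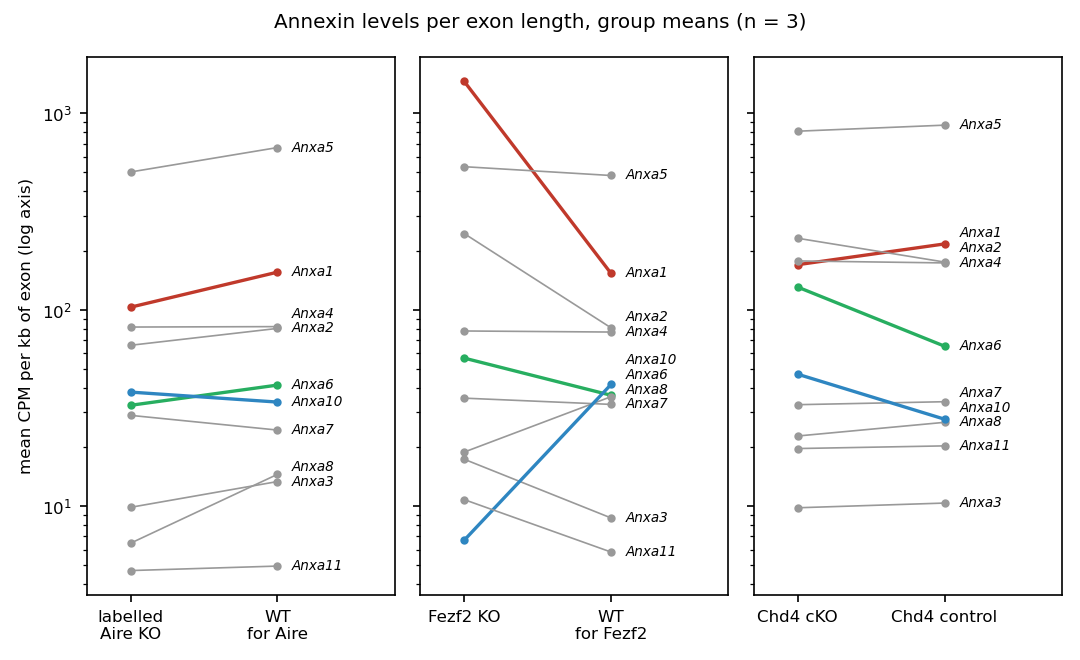
Mean level of each annexin per kilobase of exon, in CPM per kb on a log axis, with each knockout group on the left of its control; lines join the means of a gene (n = 3), and Anxa1 is red, Anxa10 blue and Anxa6 green. Anxa1 and Anxa10 cross the other members in the Fezf2 panel, reaching 1453 and 6.69 CPM per kb in Fezf2 KO, and Anxa6 separates in the Chd4 panel.

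Aire is the regulator that promotes tissue-restricted transcripts in these cells, and its comparison asks which of them depend on it. Of the 10 annexins, 0 rose and 2 fell by edgeR's quasi-likelihood test with Benjamini-Hochberg adjustment over 14949 genes, against 5.73% and 9.37% of all genes. The median log2 fold change was -0.31 over the members, 8 of which were below 0, and 0.00 over all genes. The 2 members were Anxa8 and Anxa1. Without Aire KO B the count of 2 became 0, and it became 1 without Aire KO A or C or without WT for Aire A or B.

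Anxa8 (ENSMUSG00000021950, protein coding, chromosome 14, 34085981 to 34100571) had 8.81, 11.6 and 16.1 CPM in libraries labelled Aire KO, against 20.2, 23.1 and 38.4 CPM in the WT for Aire. No library of one group reached the other, and the level fell to 0.447 of the WT mean (log2 fold change -1.16, SE 0.30, adjusted p = 0.0172). It rests on 37 to 68 exon reads per library labelled Aire KO and 100 to 178 per WT library. Its call did not hold without WT for Aire C (-0.82, adjusted p = 0.108), without Aire KO A (-0.97, adjusted p = 0.0551) and without Aire KO B (adjusted p = 0.0687). Across 10 alternatives its adjusted p ran between 1.63e-04 and 0.108.

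Anxa1 had 261, 279 and 265 CPM in libraries labelled Aire KO, against 437, 498 and 279 CPM in the WT for Aire. The highest library labelled Aire KO, at 279.1 CPM, lay just under the lowest WT library, at 279.4 CPM. The means were 268 ± 9.46 and 405 ± 113 CPM (SD, n = 3 each; log2 fold change -0.59, SE 0.17, adjusted p = 0.0300). Leaving out WT for Aire B ended that call (-0.41, adjusted p = 0.154), as did leaving out WT for Aire A (0.110), Aire KO A (0.0797), Aire KO B (0.0874) or Aire KO C (0.0556), and the fit of 12 libraries (0.0571). Its alternatives gave adjusted p of 4.19e-05 to 0.154.

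Anxa10 did not pass, with 86.0, 69.4 and 105.9 CPM in libraries labelled Aire KO and 64.6, 84.6 and 83.3 CPM in the WT for Aire (log2 fold change 0.17, SE 0.16, adjusted p = 0.572). Its groups overlapped. Anxa5 had 893 ± 28.6 CPM against 1189 ± 259 CPM in the WT (-0.41, SE 0.14, adjusted p = 0.0686), and it passed without WT for Aire C (adjusted p = 0.00898), by DESeq2 (0.0242) and with no filter on low counts (0.00498).

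The other members of this comparison that missed the threshold were Anxa3 (-0.44, adjusted p = 0.161), Anxa6 (-0.34, adjusted p = 0.123), Anxa2 (-0.28), Anxa11 (-0.08), Anxa4 (-0.01) and Anxa7 (0.25, adjusted p = 0.230), as log2 fold changes. Without Aire KO A, Anxa3 passed (-0.69, adjusted p = 0.0192). Markers of immature mTECs (mTEC-lo) summed to 1310 to 1682 CPM in libraries labelled Aire KO and 1964 to 3545 CPM in the WT, with 0 of 5 higher and 2 lower. The largest part of that sum was Ccl21a, at 760.5 CPM against 1424 CPM in the WT. Myeloid markers had 1 higher and 5 lower of 7 tested, with sums of 1054 to 1708 and 1452 to 1580 CPM that overlapped. The largest change among them was that of Ly6g, with 1 read over the group labelled Aire KO and 580 in the WT. The 1 myeloid marker that rose was Cd68 (0.85, adjusted p = 0.0163), and Lyz2 did not pass (0.29, adjusted p = 0.320). The part of either list in the annexin values was not tested.

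**Figure D3:**
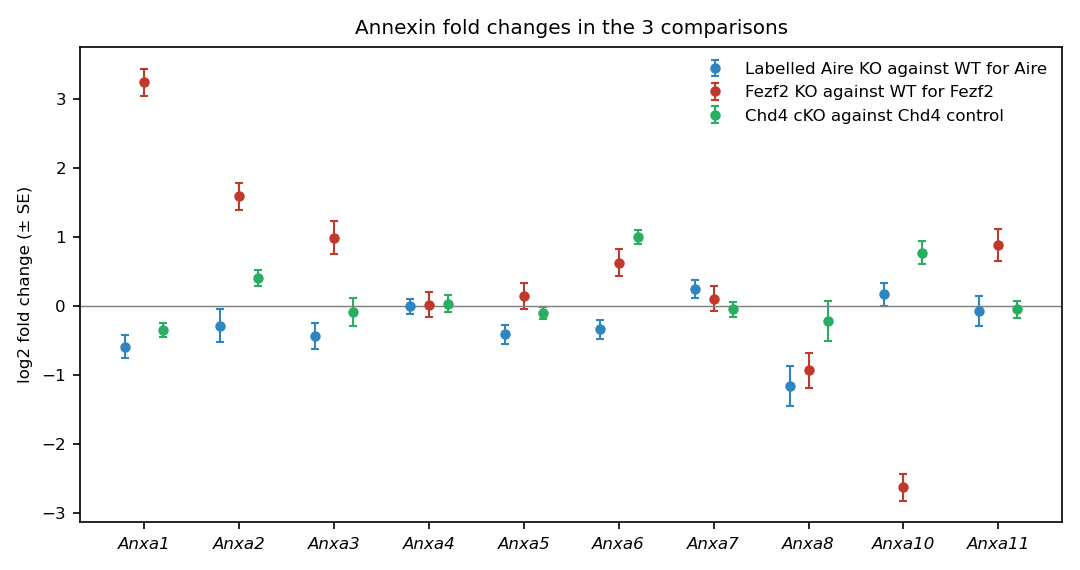
Log2 fold change of each annexin, with its standard error, in the libraries labelled Aire KO (blue), Fezf2 KO (red) and Chd4 cKO (green), each over its own control of 3 libraries. The red points of Anxa1 and Anxa10 lie at 3.25 and -2.63, and the green points of Anxa6 and Anxa10 at 0.999 and 0.77.

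Chd4 is a helicase that drives chromatin remodelling by NuRD, and its cKO was set against the Chd4 control. Here 3 annexins rose, Anxa6, Anxa10 and Anxa2, and 1 fell, Anxa1, by edgeR's quasi-likelihood test. Of all 15182 genes tested, 14.3% were higher and 14.3% lower. The median log2 fold change was -0.05 over the members and 0.00 over all genes. Without control C, cKO B or cKO C the count of 4 became 2.

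Anxa6 (ENSMUSG00000018340, protein coding, chromosome 11, 54979108 to 55033445) had 305, 312 and 355 CPM in Chd4 cKO libraries, against 175, 159 and 152 CPM in the Chd4 control. Its groups did not overlap, and the mean rose to 324 ± 27.4 CPM in the cKO against 162 ± 11.7 CPM in the control (SD, n = 3 each; log2 fold change 0.999, SE 0.10, adjusted p = 6.56e-05). Under each of 9 alternatives the value stayed between 0.94 and 1.07 with an adjusted p of at most 6.87e-04.

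Anxa10 had 86.8, 99.9 and 64.2 CPM in Chd4 cKO, against 50.4, 55.4 and 42.4 CPM in the Chd4 control. Every cKO library exceeded every control library (83.7 ± 18.1 and 49.4 ± 6.59 CPM; log2 fold change 0.77, SE 0.17, adjusted p = 0.00596). It passed under each of the 9 alternatives, with values of 0.63 to 0.93 and an adjusted p of at most 0.0252. The rise rests on 300 to 1706 exon reads per cKO library and 177 to 224 per control library.

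Anxa2 had 359, 408 and 443 CPM in Chd4 cKO, against 344, 311 and 261 CPM in the Chd4 control, with no overlap (log2 fold change 0.40, SE 0.12, adjusted p = 0.0260). Leaving out control B or C or cKO B or C lost that call, with adjusted p of 0.0561 to 0.0847. Anxa1 had 276, 292 and 283 CPM in the cKO, against 350, 320 and 415 CPM in the control, again with no overlap (-0.35, SE 0.10, adjusted p = 0.0272). Its call was lost without control A or C or without any 1 of the cKO libraries, with adjusted p of 0.0610 to 0.0982.

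The other 6 members did not pass in Chd4 cKO. Their log2 fold changes ran from -0.22 for Anxa8 to 0.03 for Anxa4, and their groups overlapped. Anxa5, the most abundant member per kb, had 1403 ± 144 CPM in the cKO and 1506 ± 94.5 CPM in the control. Markers of mTEC-lo summed to 5322 to 6816 CPM in the cKO and 2803 to 3373 CPM in the control, with 3 of 5 higher and 2 lower. Most of that sum was Ccl21a, at 4741 CPM in the cKO against 1846 CPM, while Ly6a (-0.77) was among the 2 lower. Myeloid markers summed to 752 to 1049 and 1557 to 1879 CPM, with 1 higher and 6 lower of 9. Their part in the changes of Anxa1, Anxa2, Anxa6 and Anxa10 was not tested.

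The effect of Chd4 cKO was tested against that of the Aire label in one fit of 12 libraries. Only Anxa6 differed by that test, by a log2 difference of 1.36 (SE 0.17, adjusted p = 4.18e-05), from log2 fold changes of 0.999 in Chd4 cKO and -0.34 in those labelled Aire KO. Over all 15663 genes 15.2% had a higher effect in Chd4 cKO and 8.43% a lower one, and the median difference was 0.10. Anxa10 (0.62, adjusted p = 0.0881), Anxa2 (0.71, adjusted p = 0.124) and Anxa8 (0.96, adjusted p = 0.151) did not pass. Anxa10 passed without Chd4 cKO C (0.0317) or Aire KO C (0.0399), Anxa2 without WT for Aire C (0.0137), as did Anxa5 (0.0375), and Anxa8 without Chd4 control C (0.0193). The column names place the Aire and Chd4 libraries in different sequencing runs, and their strains differ, so run, strain and targeted gene cannot be told apart in this difference.

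The WT for Fezf2 and the WT for Aire carry the same strain and genotype labels and give the size of differences between control groups; they are given with no test. Anxa8 stood at 68.3 ± 4.49 CPM in the WT for Fezf2 and 28.4 ± 10.2 CPM in the WT for Aire, a log2 difference of 1.26. Anxa3 (-0.66) and Anxa5 (-0.52) were lower in the WT for Fezf2, Anxa7 (0.38) and Anxa10 (0.25) higher, and Anxa1 (-0.07) and Anxa2 (-0.04) nearly level. Over 9 alternatives, among them leaving out library B of the WT for Fezf2, these differences were 1.08 to 1.59 for Anxa8, -0.88 to -0.52 for Anxa3 and -0.68 to -0.36 for Anxa5. For 7 of the 10 members, all but Anxa1, Anxa2 and Anxa6, the difference between WT groups was larger in size than the log2 fold change of the Aire comparison. Both values take the same WT for Aire libraries as reference, so they are not independent. The share over all genes was not taken, so nothing is read from that count.

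Genes that work with annexins were counted from lists of known partners. Beside these counts, 5.73% of all genes rose and 9.37% fell in the Aire comparison, and 14.3% rose and 14.3% fell in Chd4 cKO. In Fezf2 KO 4.81% of all genes were at least 2-fold higher and 7.23% lower. Of 8 annexin-binding EF-hand proteins, 7 were tested in the Aire comparison, where S100a6 and S100a4 rose and S100a10 fell. S100a10, the partner of annexin A2, had 40.9 CPM in libraries labelled Aire KO and 86.0 CPM in the WT for Aire (log2 fold change -1.07, adjusted p = 8.30e-04), while Anxa2 itself did not pass. In Chd4 cKO it rose, to 140 CPM against 107 CPM in the control (0.40, adjusted p = 0.00630), and it was the only one of 8 to pass. In Fezf2 KO, where Anxa2 was 3.02-fold higher, S100a10 stood at 142 CPM against 126 CPM in the WT (0.18). That value turns on WT library B, at 181 CPM, and was 0.53 without it. S100a6 and S100a4 had -0.40 and -0.49 in Fezf2 KO, and -0.11 and 0.13 without WT library B.

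Of 7 genes of the plasminogen system, the proteolytic cascade that annexin A2 anchors at the cell surface, 5 were tested in the Aire comparison and 2 fell. These were Plat, tissue plasminogen activator (-0.73, adjusted p = 0.0122), and Plaur, the urokinase receptor (-1.96, adjusted p = 0.0468). Plgrkt, a plasminogen receptor, fell in Chd4 cKO (-0.71, adjusted p = 8.01e-04), alone among 6 tested. In Fezf2 KO 1 of 6 was at least 2-fold higher, Plat, at 148 ± 35.1 CPM against 56.0 CPM in the WT (1.40), while Plaur had 0.68 and Plgrkt -0.48. Without WT library B these were 1.26, 0.93 and -0.29, with 1 gene again at least 2-fold higher.

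The glucocorticoid response is the pathway known to induce Anxa1. Anxa1 itself fell in Chd4 cKO by edgeR's quasi-likelihood test (log2 fold change -0.35). Of 9 genes of this response 5 rose and 0 fell there, where 14.3% of all genes rose and 14.3% fell. The 5 included Dusp1, a phosphatase (0.67, adjusted p = 0.00550), and Fkbp5, a co-chaperone of the receptor (0.57, adjusted p = 0.00449). In the libraries labelled Aire KO 1 rose, Klf9, a zinc finger factor (0.50, adjusted p = 0.0448), and 2 fell, among them Hsd11b1, which regenerates active glucocorticoid (-0.82, adjusted p = 0.0289). In Fezf2 KO, where Anxa1 was 9.50-fold higher, 0 of the 9 were past 2-fold. Of all genes 4.81% were at least 2-fold higher there and 7.23% lower. Dusp1 had 0.10, Fkbp5 -0.17 and Klf9 -0.11, and Hsd11b1 stood just under 2-fold at 38.6 ± 2.81 CPM against 19.4 CPM in the WT; without WT library B it had 1.09 and the count was 1. Of the 6 genes for annexin A1 receptors, phospholipase and related targets only 3 were tested in each comparison, Pla2g4a, Trpm7 and Chuk, and none passed in the Aire or Chd4 comparison. The relation of either list to Anxa1 was not tested.

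Membrane repair genes were led by Dysf, which encodes the repair protein dysferlin. It fell in the libraries labelled Aire KO (3.69 ± 2.07 CPM against 10.3 CPM in the WT, -1.48, adjusted p = 0.0293), alone among 8 tested. It also fell in Chd4 cKO (7.61 ± 0.666 CPM against 21.5 CPM in the control, -1.48, adjusted p = 0.00162), as did Pdcd6ip, an ESCRT adaptor (-0.34, adjusted p = 0.0240), while the scaffold Ahnak rose (0.40, adjusted p = 0.0112). No repair gene was past 2-fold in Fezf2 KO, with or without WT library B, and Dysf, Ahnak and Pdcd6ip had 0.30, 0.40 and 0.37 (0.24, 0.58 and 0.12 without it). Of the annexin genes outside the set of 10, Anxa9 stood at 35.7 ± 7.36 CPM in Fezf2 KO and 14.1 CPM in its WT (log2 fold change 1.35, or 1.42 without WT library B). Anxa13 had 6.42 ± 1.73 CPM in Fezf2 KO against 9.64 CPM in the WT. It fell in Chd4 cKO, to 1.15 ± 0.631 CPM against 4.09 CPM in the control (-1.66, adjusted p = 0.0329).

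Cornified epithelium is another setting of annexins, annexin A1 being a known component of its envelope and Anxa8 a transcript of stratified epithelia. Of all genes 9.37% fell and 5.73% rose in the libraries labelled Aire KO. Of 17 keratinocyte differentiation genes 8 fell and 0 rose there, with a median log2 fold change of -0.53. The keratin Krt4 (-2.85, adjusted p = 8.55e-04) was one of them, and Krt13 had 0 reads there against 220 in the WT, at least 73.4-fold lower with the floor of 3 reads over the group. In Chd4 cKO 2 of 16 rose and 5 fell, where 14.3% of all genes rose and 14.3% fell. The falls included Krt6a (-2.28, adjusted p = 1.15e-04) and Lor, the envelope protein loricrin (-1.78, adjusted p = 0.00150).

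In Fezf2 KO, where Anxa1 was higher and Anxa8 lower, 6 of the 17 keratinocyte genes were at least 2-fold higher and 4 at least 2-fold lower, the same counts as without WT library B. Of all genes tested 4.81% and 7.23% were past 2-fold in those directions. Krt6a stood at 284 ± 69.8 CPM against 45.6 ± 14.8 CPM in the WT, and Lor at 78.9 ± 24.7 CPM against 33.6 ± 14.5 CPM. Without WT library B their log2 fold changes were 2.39 and 1.64, against 2.64 and 1.23 with it. The 4 lower genes were Krt10 (-2.80), Lgals7 (-2.58), Krt1 (-1.92) and Tgm3 (-1.17). Without WT library B these had -2.58, -1.74, -1.89 and -1.28. Krt4 and Krt13 had 0.10 and -0.09 in Fezf2 KO. The list held values on both sides of 0, as the annexins did, and its relation to them was not tested.

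Anxa10 was set beside 13 genes of stomach epithelium, since its transcript is known from that tissue. In the libraries labelled Aire KO 8 of the 10 tested stomach genes fell and 0 rose, where 9.37% of all genes fell and 5.73% rose. The median log2 fold change of the stomach genes was -3.59, or the same with scarce genes at their bound. Anxa10 had 0.17 and did not pass. Tff1, a gastric trefoil peptide, had 0.928 CPM there against 23.2 CPM in the WT for Aire. The gastrokine Gkn1 had 0 reads there against 103 in the WT, at least 34.4-fold lower taking 3 reads over the group as the floor. Pgc, pepsinogen C, had 2 reads against 1047.

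Of all genes in Chd4 cKO 14.3% fell and 14.3% rose. There 7 of 12 tested stomach genes fell and 0 rose (median -0.90), while Anxa10 rose. Gkn2 (-1.89, adjusted p = 0.00960), Tff1 (-1.45, adjusted p = 0.00502) and Pgc (-1.18, adjusted p = 1.51e-04) were among them. In Fezf2 KO, where Anxa10 was lower, 1 of 12 was at least 2-fold lower, Gkn3 (-1.13), and 0 were at least 2-fold higher. The median of the stomach genes was -0.13. Over all genes 7.23% were at least 2-fold lower there and 4.81% higher. Without WT library B, Gkn3 had -0.92, Tff1 was the 1 gene past 2-fold (1.14 against 0.66 with B), now upward, and the median was 0.00 over 13. Pgc had -0.12, Gkn1 -0.68 and Gkn2 0.50 with all libraries. Anxa10 and the stomach list are set side by side here with no test of the difference between them.

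**Figure D4:**
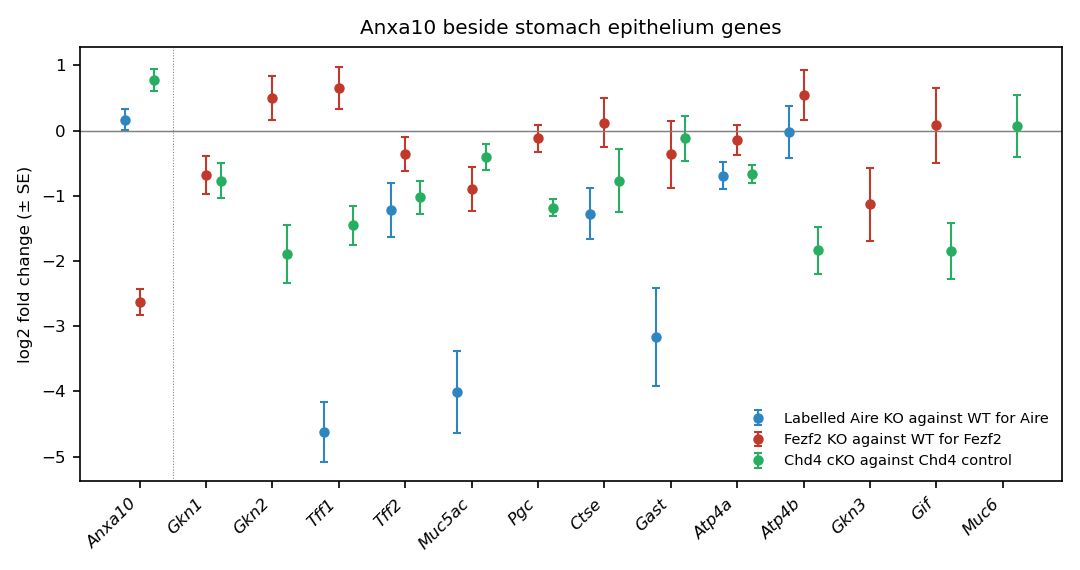
Log2 fold changes with standard errors of Anxa10 (left of the dotted line) and of stomach epithelium genes in the libraries labelled Aire KO (blue), Fezf2 KO (red) and Chd4 cKO (green), each over its control; genes with at most 3 reads in a group, or not tested, have no point. Anxa10 lies at 0.17, -2.63 and 0.77, while the lowest stomach point is that of Tff1 in the Aire comparison, at -4.62; Atp4b is lower in Chd4 cKO (-1.83) than in the libraries labelled Aire KO (-0.02).

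The genes nearest to Anxa1 and Anxa10 were taken by Euclidean distance between their log2 fold changes in the 3 comparisons, over 13783 genes tested in all of them; the Fezf2 values enter this distance, so it is a description. Nearest to Anxa1 was Dkkl1, at a distance of 0.474, with log2 fold changes of -0.84 for the Aire label, 2.85 in Fezf2 KO and -0.26 in Chd4 cKO. F3, tissue factor of blood coagulation, followed at 0.518 (-0.86, 3.44 and -0.75 in the same order), then 1700024P16Rik at 0.694, Fbn2, a fibrillin, at 0.906 and Porcn, which acylates Wnt ligands, at 0.925.

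Nearest to Anxa10 was Kif26a, a kinesin family gene, at 0.357, with 0.10 for the Aire label, -2.75 in Fezf2 KO and 0.44 in Chd4 cKO. Cd302, a lectin receptor, followed at 0.391, Zc2hc1c at 0.402, Col17a1, a collagen of hemidesmosomes, at 0.478 and Rundc3b at 0.506. All 5 had Fezf2 values between -2.89 and -2.21 and Chd4 values between 0.44 and 1.16. With the Fezf2 values taken without WT library B, 3 of the 5 genes nearest to Anxa1 and 4 of the 5 nearest to Anxa10 were among those named, Dkkl1 and Kif26a again first.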

How the data were processed

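Per the labels' protocols, total RNA of the sorted cells was taken on an automated instrument and made into libraries with a low-input SMART-seq kit. The authors deposited 3 tables with counts of total exon reads per gene and library, per the file headers, and exon lengths; 216 further per-library columns were not used. The submitters' processing notes name DESeq2, mm10 and GRCm38. The sources used here do not give the aligner, strand handling or treatment of reads with several matches. Reads of Anxa11 and its antisense partner Anxa11os, and of Anxa4 and Gm44036 on the other strand, may therefore be mixed.

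Columns name a group and a barcode, so libraries were mapped to groups, with letters A to C in the order of barcodes. edgeR 4.0.16 (R 4.3.3; TMM, filterByExpr, quasi-likelihood tests) fitted the 6 libraries of each comparison, with Benjamini-Hochberg adjusted p under 0.05 over all genes tested as the threshold; the scripts were tested on simulated data. SE is the log2 fold change over the square root of F. Alternatives were RLE scaling, no filter, DESeq2 1.42.0, each library left out and a 12-library fit. Members, lists and rules were chosen with earlier results of these data known. All 10 members are named. Partner, keratinocyte and stomach lists give their counts and up to 4 genes with the largest changes among those that passed in the Aire or Chd4 comparison, with the same genes in Fezf2 KO. Gkn3, Atp4b, Anxa9, Lyz2, Cd68, H2-Aa, Krt1, Krt10, Lgals7, Tgm3 and the 3 tested receptor and phospholipase genes were named after their values were seen. For cell type lists, counts or sums are given, with genes of the same rule where named. What gene lists, levels and nearest genes become without library B of the WT for Fezf2, and list sums with TMM factors, were alternatives chosen after seeing the data. Coordinates are 1-based; symbols, spans and promoters come from the tables, GENCODE M21 and RefSeq.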

Additional observations from a re-analysis of the deposited data

How the results depend on the processing

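No member changed sign past the threshold under the alternatives tried. In the libraries labelled Aire KO, the count of annexins past the threshold was 2, and 1 in the fit of 12 libraries, with 0 to 2 when 1 library was left out. It was 2 with RLE scaling and 3 with DESeq2 and with no filter. In Chd4 cKO the count was 4 under all other settings and 2 to 3 with 1 library left out. The count past 2-fold in Fezf2 KO was 3, with 3 to 5 when 1 library was left out, and the count of members whose Chd4 and Aire effects differed was 1, with 1 to 3. Fewer libraries are fitted when 1 is left out; the cause of the other changes was not tested. No paired analysis was possible because the columns carry no replicate numbers. Anxa8 in the libraries labelled Aire KO, with 37 to 68 exon reads per library, has the fewest reads of the members that passed.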

Other observations

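Of 5 tested fibroblast genes in the libraries labelled Aire KO, 2 rose and 3 fell by edgeR's quasi-likelihood test. Over all genes 5.73% rose and 9.37% fell there, and 14.3% rose and 14.3% fell in Chd4 cKO. The proteoglycan genes Dcn (334 ± 42.2 CPM against 124 ± 23.3 CPM in the WT for Aire, SD, n = 3 each, adjusted p = 2.88e-05) and Lum (log2 fold change 1.63, adjusted p = 0.00919) rose, and the collagen genes Col1a1 (-2.95, adjusted p = 2.53e-04) and Col1a2 (-1.11, adjusted p = 0.0185) were among those that fell. In Chd4 cKO Lum rose as well, to 38.3 ± 7.21 CPM against 5.31 ± 1.27 CPM in the control (log2 fold change 2.85, adjusted p = 2.07e-05), as 1 of 5 higher, with 2 lower. Of 4 tested endothelial genes 1 rose and 0 fell in the libraries labelled Aire KO, Pecam1 (1.40, adjusted p = 0.00247). In Chd4 cKO 2 were tested, and Esam rose (0.96, adjusted p = 0.0220) while Pecam1 had -0.41 and did not pass, at 5.09 CPM against 6.81 CPM in the control. Of 4 B cell genes 1, Cd79b, rose in Chd4 cKO (1.09, adjusted p = 2.74e-04), and B cell markers summed to 74.7 to 95.4 CPM there against 46.9 to 53.9 CPM in the control. Cortical epithelial markers had 1 higher, Ly75, and 1 lower, the chemokine gene Ccl25, of 6 in Chd4 cKO, and 1 lower, Enpep, of 6 in the libraries labelled Aire KO.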
